A study of Mus musculus with 65 samples.

Results

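Gene expression was compared between an H3.3K27A line and an H3.3A knockout line of mouse embryonic stem cells, both at day 0. The comparison was chosen by its labels alone and holds 4 of the 17 RNA libraries of the series (65 samples in all), 2 for each line. Both lines were made with CRISPR/Cas9 and grown on gelatin in serum medium with leukaemia inhibitory factor (LIF), which keeps stem cells undifferentiated. The labels name no clone number and do not say which H3.3 gene carries the K27A change, nor whether the duplicates B1 and B2 came from separate cultures, so the p-values reflect no more than how these samples spread, which may be technical. Beside them stand 1 wild-type library of day 0 and 6 libraries of day 6 (2 of wild type, 2 of the knockout, 2 of H3.3K27A), in which each line had grown as rotating embryoid bodies without LIF and with 10 µM retinoic acid. The labels give all 11 libraries the same date in 2020 and do not say what it marks. Chromatin was profiled in wild-type cells only.

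H3.3 is the variant of histone H3 that is placed into chromatin outside DNA replication, and mammals encode it in a pair of genes, H3f3a and H3f3b, whose protein products are the same. Lysine 27 of H3 is methylated by Polycomb repressive complex 2 (PRC2) at silent developmental genes and is acetylated at active enhancers and promoters. Replacing it with alanine leaves a residue that can carry neither mark. Mouse stem cells kept in serum and LIF are a mixed population, in which some cells switch on genes of primitive endoderm, the extraembryonic lineage that is driven by Gata6, Sox17 and Gata4 and lays down basement membrane.

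As picked examples of promoters of changed genes, 4 windows of 250 bases just before the start site are printed. Of these, 3 are of genes that were lower in H3.3K27A (Cubn, Nostrin and Dkk1) and 1 is of a gene that was higher (Hoxa10). They come from RefSeq on GRCm38.p6 (mm10), run 5′ to 3′ on the gene's own strand, and carry each CG dinucleotide in capitals.
Cubn, chr2:13491877-13492126, minus strand: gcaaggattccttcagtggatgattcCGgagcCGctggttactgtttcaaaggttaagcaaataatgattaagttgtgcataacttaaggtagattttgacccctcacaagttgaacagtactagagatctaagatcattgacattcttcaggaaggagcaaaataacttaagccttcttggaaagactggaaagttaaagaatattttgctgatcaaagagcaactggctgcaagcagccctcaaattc
Nostrin, chr2:69135550-69135799, plus strand: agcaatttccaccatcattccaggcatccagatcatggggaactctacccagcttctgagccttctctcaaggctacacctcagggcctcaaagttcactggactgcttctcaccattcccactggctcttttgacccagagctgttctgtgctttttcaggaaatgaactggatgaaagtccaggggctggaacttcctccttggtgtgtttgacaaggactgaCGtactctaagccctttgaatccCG
Dkk1, chr19:30549497-30549746, minus strand: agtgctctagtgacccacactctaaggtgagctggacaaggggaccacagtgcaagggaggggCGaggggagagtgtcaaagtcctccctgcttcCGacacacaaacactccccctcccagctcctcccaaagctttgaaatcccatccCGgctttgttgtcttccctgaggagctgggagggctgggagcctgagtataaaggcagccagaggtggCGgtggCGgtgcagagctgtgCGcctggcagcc
Hoxa10, chr6:52240855-52241104, minus strand: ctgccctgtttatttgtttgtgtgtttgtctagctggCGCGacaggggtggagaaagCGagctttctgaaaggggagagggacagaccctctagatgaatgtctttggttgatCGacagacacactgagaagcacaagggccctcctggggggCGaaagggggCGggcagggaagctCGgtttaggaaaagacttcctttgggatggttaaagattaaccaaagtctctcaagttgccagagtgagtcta
Cubn and Nostrin hold 2 CG each, and their start sites had no H3.3K27me3 or H3K27me3 peak of wild-type cells within 1 kb. Dkk1 holds 6 CG and Hoxa10 holds 7, and both start sites had peaks of both marks within 1 kb. The core letters of a GATA site, GATAA on either strand, are in none of these 4 windows. Over all genes with an entry in the RefSeq promoter table they are in 14.8% of the windows of genes tested (11071 genes), in 17% of those of genes lower in H3.3K27A (15 of 88) and in 10.9% of those of genes higher (5 of 46). The median window held 15 CG among genes tested, 14 among lower genes and 15 among higher genes. All 4 printed windows hold fewer CG than these medians, so they are not typical of the changed genes.

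The 4 libraries held 14270549 to 20930198 gene counts, with 15640 to 16045 genes detected in each. Markers of stem cells were high in both lines: the summed level of 8 markers (Pou5f1, Sox2, Nanog, Esrrb, Zfp42, Klf4, Dppa5a and Utf1) was 6240 and 6200 CPM (counts scaled to library size) in the knockout against 6780 and 7030 CPM in H3.3K27A and 5860 CPM in wild type, and none of them was called. Of the other lineages checked, fibroblast markers (9 genes) summed to 413 to 557 CPM, neural markers (5) to 150 to 162 CPM and mesoderm markers (4) to 3.03 to 3.65 CPM in the 4 libraries, none called. The trophoblast markers Elf5, Gata3 and Tpbpa had no count in them. At day 6 the knockout libraries stood apart from each other: their chi-square per gene was 47, against 3.31 to 5.59 in every other pair of duplicates, where counting error alone gives about 1, and all groups share 1 estimate of the spread in the test used here.

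H3f3a, the gene behind the name H3.3A, was checked first. It measured 22.9 and 21.1 CPM in the knockout against 21.9 and 24.2 CPM in H3.3K27A and 129 CPM in wild type. Both edited lines were thus low by a similar amount, with log2 changes against wild type of -2.55 ± 0.10 in the knockout and -2.48 ± 0.10 in H3.3K27A (values ± are approximate standard errors from the fit). Between the edited lines it did not pass the test (log2 change 0.07 ± 0.09, adjusted p = 0.846). H3f3b, the other gene of the pair, fell 1.79-fold in H3.3K27A. Its level was 872 and 914 CPM in the knockout against 499 and 501 CPM in H3.3K27A and 797 CPM in wild type, and its log2 change was -0.84 ± 0.07 (adjusted p = 0.000484). Read counts per gene do not show the K27A change itself, and reads of H3f3a and H3f3b can also match pseudogene copies. Of the chaperones and remodellers that handle H3.3, none was called among the 11 tested, Hira (log2 change -0.2) and Atrx (-0.05) among them, and Daxx had too few counts to be tested. Y-linked genes were low in both edited lines: Ddx3y measured 4.96 and 5.25 CPM in the knockout against 3.15 and 3.33 CPM in H3.3K27A against 49.8 CPM in wild type, and Uty measured 0.902 and 1.49 CPM, 0.537 and 0.488 CPM, and 34.7 CPM in the same order. The part of this difference from wild type in the results below was not tested.

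Across the genome, most genes that passed the test were lower in H3.3K27A than in the knockout. Of 14760 genes tested, 187 were called at an adjusted p below 0.05 (1.27% of those tested), 119 lower (0.806%) and 68 higher (0.461%). A change of 2-fold or more was reached by 71 genes (0.481%), 58 lower (0.393%) and 13 higher (0.0881%), and the median log2 change of all genes was -0.02. The knockout libraries of day 6 weigh on this count: without them, in an alternative chosen after the data were seen, 1177 genes were called, 632 higher and 545 lower (53.7% higher, against 36.4% in the main count), and all 187 were among them. Fitting only the 4 libraries compared gave 1019 calls (8.06% of 12642), 518 higher (4.1%) and 501 lower (3.96%). The calls were thus close to evenly split in those fits, while 137 of the 193 genes of 2-fold or more were lower without the knockout libraries of day 6. With 1 library left out the pooled fit made few calls: 25 without knockout B1, 23 without knockout B2, 19 without H3.3K27A B1 and 21 without H3.3K27A B2. Of the 47 called genes that are named by rule, 10 passed in all 4 of these fits (Acsf2, Dab2, Pnma5, Pdgfra, Cubn, Klhl13, Lefty1, H3f3b, Sema6a and Sema3e), and the other 37 lost the call without at least 1 library.

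**Figure D1:**
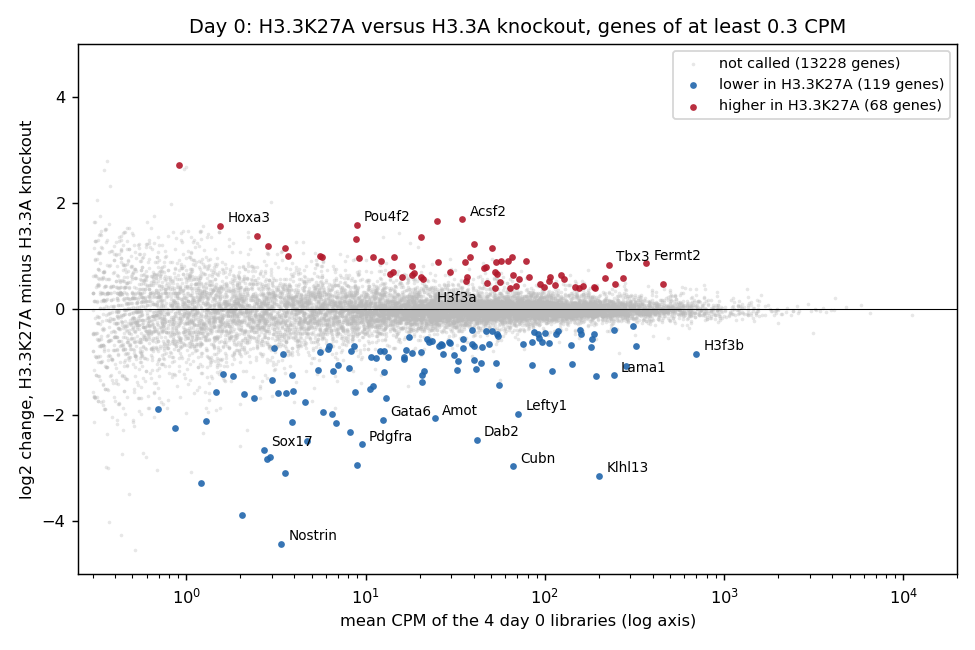
Each point is a gene with a mean of at least 0.3 CPM over the 4 libraries (13415 genes), with its mean level on the horizontal log axis and the log2 change of H3.3K27A minus the H3.3A knockout on the vertical axis. Blue points are the 119 genes called lower and red points the 68 called higher; Nostrin is the lowest blue point, Klhl13 and Cubn combine a large fall with a high level, and Acsf2 and Hoxa3 are among the highest red points.

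Genes of primitive endoderm were the group with the most members lower in H3.3K27A. Of 24 genes on the list 23 were tested, 10 were lower, none was higher, and their median log2 change was -1.4 (all genes: 0.806% lower, median -0.02). With 1 library left out, the list had 4 calls without knockout B1 and 3 without each of the others, all lower. In bulk RNA, fewer cells of a type and less RNA per cell cannot be told apart. Among transcription factors of the lineage, Gata6, picked after its values were seen, measured 20.9 and 19.6 CPM in the knockout against 4.3 and 5.28 CPM in H3.3K27A, with 8.76 CPM in wild type. Its log2 change was -2.09 ± 0.31 (adjusted p = 0.0161). Sox17 went from 4.7 and 4.64 CPM to 0.537 and 0.976 CPM, with 1.59 CPM in wild type (log2 change -2.65 ± 0.34, adjusted p = 0.0081). In both genes every knockout library lay above wild type and every H3.3K27A library below it. Foxq1, a forkhead factor, was 7.67-fold lower (adjusted p = 0.034). Gata4 (25.7 and 25.2 against 8.66 and 9.84 CPM) and Sox7 (10.6 and 10.7 against 2.89 and 2.93 CPM) showed groups that do not overlap (as 27% of all genes tested did on the lower side and 21.5% on the higher) but missed the threshold (adjusted p = 0.0837 and 0.215), and at day 6 their knockout libraries differed 2-fold or more from each other.

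Some receptors and uptake proteins of the lineage held the lowest p-values of the list, while others did not pass. Cubilin (Cubn), an endocytic receptor of visceral endoderm, measured 116 and 120 CPM in the knockout against 14.6 and 15.5 CPM in H3.3K27A and 33.8 CPM in wild type. It was 7.84-fold lower (log2 change -2.97 ± 0.17, adjusted p = 4.58e-05). Its partner amnionless (Amn) went from 14.9 and 12.2 CPM to 3.69 and 6.67 CPM without passing the test (adjusted p = 0.0837). Lrp2, another endocytic receptor on the list, did not pass either (means of 261 against 195 CPM, log2 change -0.42, adjusted p = 0.182). Dab2, the adaptor that links such receptors to clathrin, measured 66.7 and 74 CPM in the knockout against 11.7 and 13.7 CPM in H3.3K27A, a 5.56-fold fall (adjusted p = 0.000523). Pdgfra, the receptor for platelet-derived growth factor and a surface marker of the lineage, measured 17.5 and 15 CPM against 2.55 and 3.01 CPM, a 5.85-fold fall (adjusted p = 8.24e-05). For Cubn, Dab2 and Pdgfra the lines were separated by far more than the duplicates differed.

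Among basement membrane genes, 3 were called, all lower. Lama1, the laminin chain of early embryos, measured 338 and 343 CPM in the knockout against 139 and 147 CPM in H3.3K27A (log2 change -1.25 ± 0.22, adjusted p = 0.0306). The collagen IV chains Col4a1 (281 and 265 against 99.4 and 128 CPM) and Col4a2 (157 and 148 against 57.9 and 78.4 CPM), which share a promoter region, were 2.4-fold and 2.24-fold lower. Lamb1 (log2 change -0.51), Lamc1 (-0.04), Sparc (-0.49) and the nidogens Nid1 (0.23) and Nid2 (-0.05) did not pass. On the list of 26 collagens, laminins and integrins these 3 called genes were the only ones called, and the list's median was -0.1. Late yolk sac genes were close to absent: Ttr had at most 0.0813 CPM and Afp had no count in the 4 libraries. In the fit of the 4 libraries, 18 of 21 tested members of the primitive endoderm list were lower (3.96% of all genes), with Gata4, Sox7, Amn, Foxa2 and Hnf4a among them, and 1, Thbd, was higher (log2 change 0.42).

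**Figure D2:**
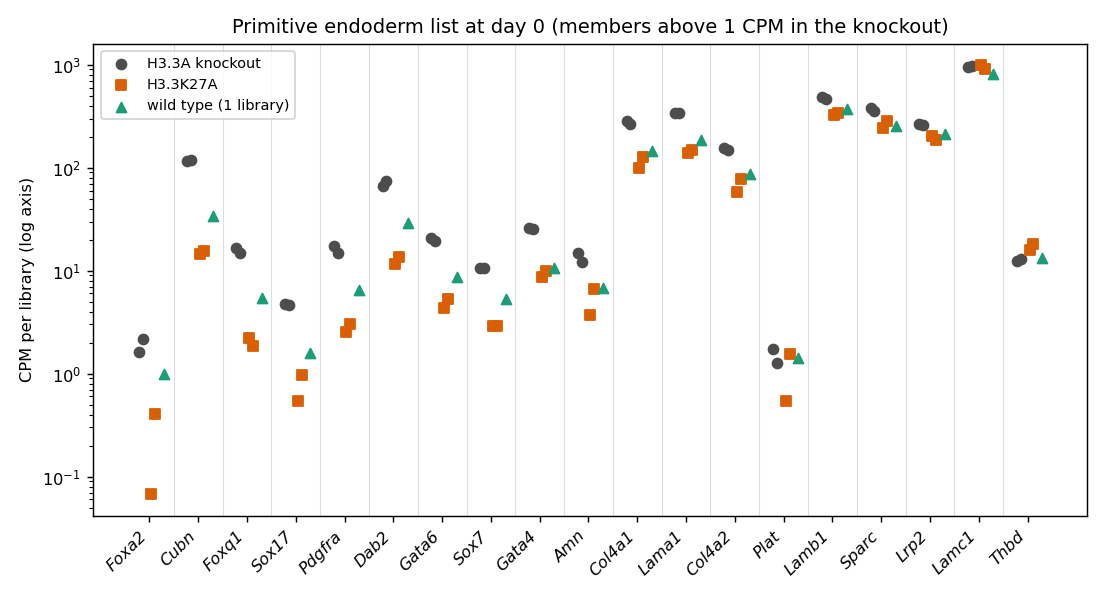
Level of 19 primitive endoderm genes above 1 CPM in the knockout in each day 0 library, on a log axis of CPM, ordered by log2 change; circles are the 2 knockout libraries, squares the 2 H3.3K27A libraries and triangles the single wild-type library. From Cubn to Col4a2 the knockout libraries lie above the H3.3K27A libraries and wild type lies between or near the lower group, while Lamc1 and Thbd show no such order.

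Several of the largest falls were in genes that are not on the primitive endoderm list. Klhl13, an X-linked substrate adaptor of a cullin ubiquitin ligase, had the smallest p of all genes tested: it measured 364 and 360 CPM in the knockout against 41.9 and 39.8 CPM in H3.3K27A and 327 CPM in wild type. That is an 8.87-fold fall (log2 change -3.15 ± 0.12, adjusted p = 5.42e-06). Nostrin, a regulator of nitric oxide synthase trafficking, fell by most among genes of at least 5 CPM, from 6.51 and 6.41 CPM to 0.268 and 0.325 CPM (21.5-fold, adjusted p = 0.0163), a value that rests on few counts in H3.3K27A. Klb, the coreceptor for FGF hormones, went from 5.22 and 7.4 CPM to 0.604 and 0.894 CPM (8.55-fold). Amot, a membrane scaffold that binds YAP, was picked after its values were seen and went from 37.7 and 41 CPM to 8.86 and 10.1 CPM (4.17-fold). Also among the 12 largest falls, with unnamed loci left out, were Pnma5 (5.59-fold), Stard8 (5-fold), Ushbp1 (4.44-fold) and Dram1 (4.41-fold). Wild type lay between the lines for Nostrin (1.75 CPM), Klb (1.21), Amot (25.4), Stard8 (7.67), Ushbp1 (7.45) and Dram1 (2.3), as for Gata6 and Sox17. For Klhl13 and Pnma5 it lay near the knockout. At day 6 Nostrin, Klb, Stard8 and Dram1 were again lower in H3.3K27A, at higher levels in all groups. A shared source with the listed genes was not tested.

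Few genes of the Nodal, Wnt and ERK lists were called in the fit of all 11 libraries, all of them lower. Lefty1, an inhibitor of Nodal, measured 113 CPM in each knockout library, 26.9 and 30.5 CPM in H3.3K27A and 197 CPM in wild type (log2 change -1.98 ± 0.15, adjusted p = 0.000434). Lefty2 measured 59.1 and 58.6 CPM against 29.5 and 28.5 CPM, with 81.6 CPM in wild type (adjusted p = 0.0065). Unlike the primitive endoderm genes, both were highest in wild type. Nodal itself did not pass (93.8 and 89.1 against 97.3 and 101 CPM), and these were the 2 lower genes among 12 tested Nodal and BMP targets (median -0.12). Dkk1, an inhibitor of Wnt, was 7.06-fold lower (5.22 and 4.7 against 0.805 and 0.569 CPM, adjusted p = 0.00309), the 1 call among 14 Wnt targets (median 0.19). Dusp4, a phosphatase that ERK signalling induces, was 2.37-fold lower, the 1 call among 14 ERK feedback genes. Among 26 axon guidance genes the semaphorins Sema6a (11.3 and 9.5 against 2.48 and 2.76 CPM) and Sema3e (56.6 and 56.4 against 25.6 and 26 CPM) were lower and the ephrin receptor Epha4 was higher (16.7 and 19 against 33.7 and 32 CPM), with a list median of -0.27. The fit of the 4 libraries called genes of these lists in both directions. There 3 of 12 Nodal and BMP targets were higher and 4 lower, and 1 of 13 Wnt targets was higher and 3 lower. Of 14 ERK feedback genes 3 were higher and 1 lower, and of 21 axon guidance genes 2 were higher and 6 lower. Over all genes that fit called 4.1% higher and 3.96% lower.

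Other abundant genes with a fall of 2-fold or more were Lncenc1, a noncoding RNA of naive stem cells (372 and 394 against 187 and 179 CPM), Trh, which encodes thyrotropin-releasing hormone (184 and 195 against 93.9 and 91.1 CPM), and Sfmbt2, an imprinted Polycomb-related gene (113 and 116 against 59 and 51.5 CPM). Sfmbt2 and Peg3 (log2 change -0.51) were the 2 calls among 33 imprinted genes tested, both lower. Gbp2, an interferon-induced GTPase, was the 1 call among 24 interferon response genes (2.41-fold lower), with 7.5 CPM in wild type against 2.32 and 2.82 CPM in the knockout.

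Fewer genes were higher in H3.3K27A by 2-fold or more. The largest fitted rise of a called gene was that of Slc15a2, a peptide transporter picked after its values were seen, with 0.322 and 0.166 CPM in the knockout against 2.01 and 1.14 CPM in H3.3K27A and 1.7 CPM in wild type (log2 change 2.71 ± 0.46, adjusted p = 0.0252). It lay below the level at which genes were named by size. Acsf2, an acyl-CoA synthetase, rose 3.23-fold, from 14.4 and 18.4 CPM in the knockout to 54.7 and 51.2 CPM, with 12.7 CPM in wild type (log2 change 1.69 ± 0.12, adjusted p = 0.000203). Pou4f2, a POU factor of retinal ganglion cells, went from 4.57 and 4.37 CPM to 15 and 11.8 CPM (3-fold, adjusted p = 0.0203). In both genes wild type lay at or below the knockout. Ptk2b, a kinase related to focal adhesion kinase, was 2.22-fold higher (32.1 and 30.5 against 69.8 and 69.2 CPM). Kbtbd11 (2.56-fold), Skida1 (2.5-fold), Prrx2 (2-fold), Coro2b, Rhobtb1 and the cholesterol exporter Abca1 (1.98-fold each), Tgm3 (1.97-fold) and Robo4 (1.96-fold) were also among the 12 largest rises, with unnamed loci left out. Fermt2, an integrin activator, was picked after its values were seen because its duplicates lay close together: 259 and 261 CPM in the knockout against 469 and 475 CPM in H3.3K27A and 253 CPM in wild type (adjusted p = 0.000232).

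**Figure D3:**
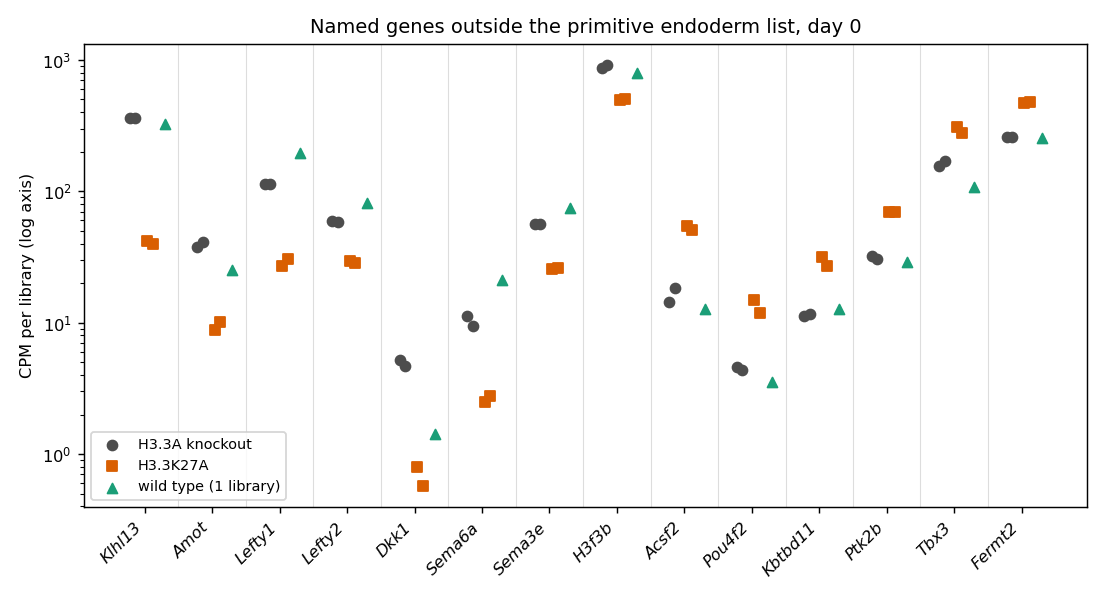
Level of 14 genes outside the primitive endoderm list in each day 0 library, on a log axis of CPM, with circles for the 2 knockout libraries, squares for the 2 H3.3K27A libraries and a triangle for the wild-type library. Klhl13 and H3f3b show wild type beside the knockout and H3.3K27A below both, Lefty1 and Sema6a show wild type highest, and from Acsf2 to Fermt2 H3.3K27A is highest.

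HOX genes, which PRC2 keeps silent in stem cells, were low in both lines and most stood higher in H3.3K27A. Of 39 genes 36 were tested, 31 had a positive log2 change (45% of all genes did), 2 were called higher and none lower, and the median was 0.59. Hoxa3 measured 0.966 and 0.608 CPM in the knockout against 2.42 and 2.2 CPM in H3.3K27A, with 1.64 CPM in wild type (adjusted p = 0.0224). Hoxa10 measured 1.48 and 1.99 CPM against 4.23 and 3.74 CPM, with 1.64 CPM in wild type (adjusted p = 0.0234). Hoxa9 had the same order at lower counts (0.322 and 0.221 against 2.08 and 1.38 CPM, adjusted p = 0.129). At day 6 Hoxa3 reached 105 to 122 CPM in both lines, far above its day 0 level. Hoxa10 rose less, to 11.8 and 10.2 CPM in the knockout and 35.6 and 36.5 CPM in H3.3K27A. In the fit of the 4 libraries, 6 of 22 were higher (4.1% of all genes), among them Hoxa3, Hoxa7, Hoxa9, Hoxa10 and Hoxb9, and none was lower.

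Of the genes of the naive stem cell state 1 was called. Of 25 tested, 20 had a positive change, only Tbx3 was called (155 and 171 against 306 and 278 CPM, adjusted p = 0.0462), and the median was 0.15. The call of Tbx3 was lost with another scaling of the libraries, and its wild-type level was 107 CPM. Nanog (599 and 613 against 775 and 800 CPM), Esrrb (830 and 847 against 1030 and 968 CPM) and Klf4 (587 and 718 against 928 and 858 CPM) had separated groups without passing the test (adjusted p = 0.391, 0.395 and 0.502). Pou5f1 (log2 change -0.04), Sox2 (0.09) and Zfp42 (-0.02) did not pass either. Dppa3, a maternal factor that marks naive cells, had the largest change of the list, downward, and missed the threshold (17.1 and 14.1 against 6.18 and 8.05 CPM, log2 change -1.14 ± 0.23, adjusted p = 0.052). Dnmt3l measured 775 and 661 CPM against 532 and 592 CPM (adjusted p = 0.781). In the fit of the 4 libraries 10 of the 25 were higher (4.1% of all genes), Nanog, Esrrb and Klf4 among them, and 2 were lower (Dppa3 and Fbxo15). None of the 14 PRC2 and demethylase genes tested was called: Ezh2 had a log2 change of -0.01, Eed 0.02, Suz12 0.05, Jarid2 0.11, Kdm6a 0.03 and Kdm6b 0.35. PRC1 genes (21) had no call either. In the fit of the 4 libraries, 1 of the 14 was higher (Kdm6b, log2 change 0.36) and 1 lower (Rbbp7, -0.29). Of the 21 PRC1 genes, 3 were higher there (Pcgf2, Kdm2b and Bcor) and 1 was lower (Pcgf5). That fit called 8.06% of all genes.

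Cholesterol synthesis genes moved little but almost all in the same direction: 21 of 22 had a negative change, the median was -0.24 and none was called. Fitted with the 4 libraries alone, 6 of the 22 were lower (3.96% of all genes) and none higher. Single calls were found for Stra8, an inducible germ cell gene (35.7 and 31.9 against 52 and 63.3 CPM), on the germline (23 genes, median 0.29) and retinoic acid response (19, median 0.17, but -0.29 without H3.3K27A B2) lists, for Cdh3 (P-cadherin, 1.62-fold higher) among 18 trophoblast genes and for Sesn1 (1.53-fold higher) among 19 p53 targets. The lists of 26 neural progenitor genes, 20 fibroblast genes, 14 two-cell-like genes, 25 proliferation genes and 77 ribosomal protein genes held no call, and their medians lay between -0.13 and 0.22. In the fit of the 4 libraries, 2 of 14 neural progenitor genes were lower (3.96% of all genes). There 3 of 77 ribosomal protein genes were higher (4.1% of all genes), and the fibroblast, two-cell-like and proliferation lists still held no call.

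By chromosome, the X held the largest share of genes called lower. Of 533 X-linked genes tested 17 were lower (3.19%) and none higher, while autosomes had 102 lower (0.72% of 14175, at most 1.45%, on chromosome 8) and 67 higher. The X median log2 change was -0.0792, outside the autosomal range of -0.042 to 0.00053. The X share of gene counts was 2.88% and 2.92% in the knockout, 2.8% and 2.76% in H3.3K27A and 2.94% in wild type. The 17 genes ranged from Klhl13, Pnma5, Stard8, Cited1 and Amot, each more than 4-fold lower, through Dgkk, Clcn5 and Hs6st2 to Prps1 (352 and 343 against 277 and 277 CPM). Gpc3, a glypican of the cell surface, measured 95.7 and 88.1 CPM against 56.4 and 60.9 CPM. Xist, the RNA of the inactive X, was near absent in each line (0.873 to 1.77 CPM in the 4 libraries). In the fit of the 4 libraries 53 of 441 X-linked genes were lower (12%) and 9 higher (2.04%), against 3.68% lower and 4.18% higher on autosomes. The X share of counts includes the called genes, so it is not separate from their calls. What part of its difference between the lines comes from them was not tested.

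**Figure D4:**
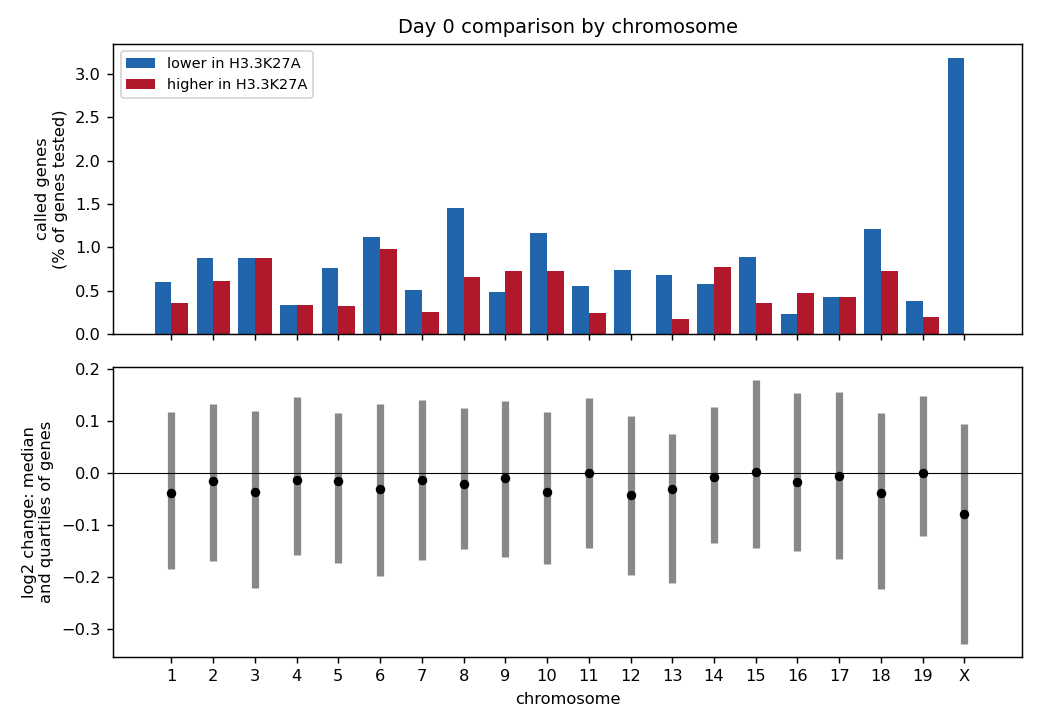
Upper panel, share of tested genes on each autosome and the X called lower (blue) or higher (red) in H3.3K27A; lower panel, median (point) and quartiles (bar) of the log2 change over genes. The X chromosome has the tallest blue bar, 3.19%, no red bar, and the lowest median of those drawn, -0.0792.

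Among genes whose promoters carried H3.3K27me3 in wild-type stem cells, the share called was larger in both directions than among genes without K27me3. No test of that difference was made. The higher side was lost with any 1 library left out, as were most higher calls of all genes. A promoter was counted where a filtered peak lay within 1 kb of the start site in both duplicates. Of 2682 such genes 1983 were tested, 16 were higher and 33 lower (2.47% called, against 1.26% of all genes with a start site), and their median log2 change was -0.04. For H3K27me3 the figures were 23 higher and 54 lower of 3287 (2.34%). Genes with neither mark had 40 higher and 63 lower of 11152 (0.924%). The marks overlap in most of these genes: 1710 tested genes had both, with 2.51% called. Genes with H3K27me3 alone had 11 higher and 23 lower of 1577 (2.16%), so the larger share was not particular to H3.3K27me3. Genes with H3.3K27me3 alone had 4 higher and 2 lower of 273 (2.2%). In the fit of the 4 libraries 6.1% of genes with H3.3K27me3 were higher and 7.86% lower, against 4.1% and 3.96% of all genes. For H3K27me3 these shares were 6.31% and 8%. Among called genes with H3.3K27me3 were Gata6, Sox17, Pdgfra, Foxq1, Dkk1 and Sema6a on the lower side and Pou4f2, Skida1, Prrx2, Hoxa3 and Hoxa10 on the higher side, while Cubn, Dab2, Lama1, Klhl13, Lefty1 and Acsf2 had neither mark. The peaks are those of wild-type cells, so they say nothing of the marks in the edited lines.

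The same lines were compared at day 6, where the group means come from other libraries than at day 0. Both comparisons use the spread estimated for each gene over all 11 libraries, so the calls of the days are not independent. There 2756 genes were called (18.7%), 1333 higher (9.03%) and 1423 lower (9.64%). Of the 68 genes higher at day 0, 25 were also higher at day 6 (36.8% of the day 0 list and 1.88% of the day 6 list) and 4 were lower. Of the 119 lower genes, 40 were also lower (33.6% and 2.81%) and 25 were higher. The change differed between the days, by the interaction term, for 65 of the 119 and 22 of the 68. These genes were picked by their day 0 change, which is part of that term. Their shares are raised by that choice and are not comparable with the 5.39% of all genes tested. The day 6 count moved with the libraries fitted: it was 208 in a fit of those 4 libraries alone, 3901 without knockout B1, 5794 without knockout B2, 719 without H3.3K27A B1 and 1086 without H3.3K27A B2.

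Primitive endoderm genes were lower on both days, by different amounts. At day 6, 17 of the 23 were lower and none higher, with a median of -1.4. Their summed level over 7 markers was 482 and 489 CPM in the knockout against 171 and 187 CPM in H3.3K27A at day 0, with 248 CPM in wild type, and 5130 to 7820, 1120 to 1420 and 1500 to 1900 CPM in the same order at day 6. The fall was larger at day 6 for Lama1 (log2 change -3 against -1.25, interaction adjusted p = 0.0129) and smaller there for Cubn (-1.41 against -2.97, 0.00473), Pdgfra (-1.24 against -2.55, 0.00608), Dab2 (-0.78 against -2.47, 0.00821) and Sox17 (-0.84 against -2.65, 0.0306). H3f3b was lower by the same size on both days (log2 change -0.84 and -0.87, interaction adjusted p = 0.895).

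For some genes the change was found at day 0 and not at day 6, with a difference between the days that passed. Klhl13 measured 71.8 and 93 CPM in the knockout against 80.4 and 74.8 CPM in H3.3K27A at day 6, and its log2 change went from -3.15 to -0.09 (interaction adjusted p = 5.22e-05). Amot went from -2.06 to 0.25 (5.22e-05) and Acsf2 from 1.69 to 0.04 (0.000971). Sema3e turned from -1.13 at day 0 to 0.99 at day 6 (0.00022) and Peg3 from -0.51 to 0.85 (0.000971), both called on each day. Hoxa10 was higher on both days (log2 change 1.19 and 1.71, interaction adjusted p = 0.262).

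**Figure D5:**
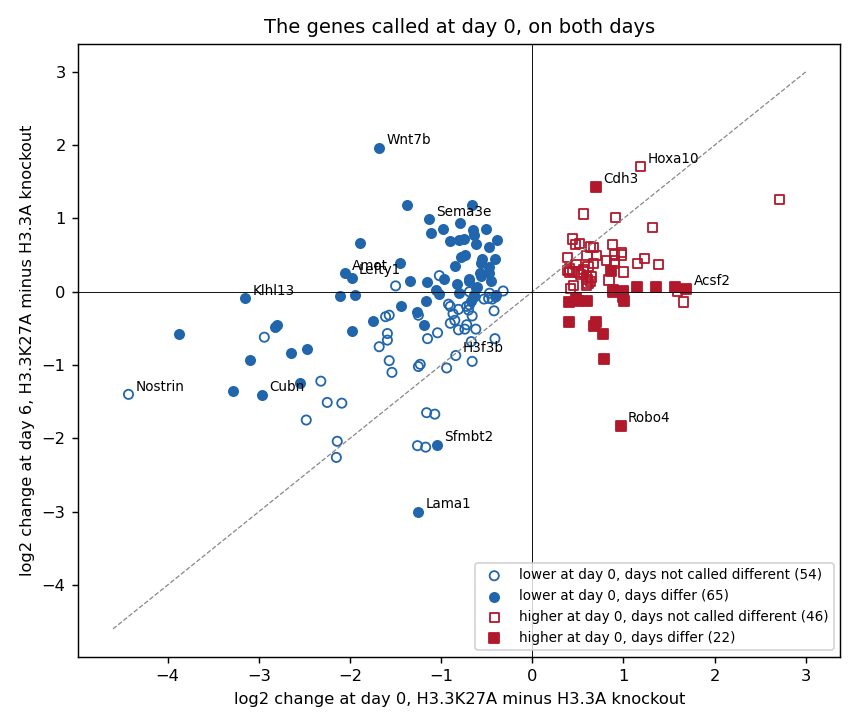
Log2 change of H3.3K27A minus the knockout at day 0 (horizontal) and day 6 (vertical) for the 187 genes called at day 0; circles were lower and squares higher at day 0, filled where the interaction term passed (65 and 22 genes), and the dashed line marks equal change. Klhl13 and Acsf2 lie near 0 on the day 6 axis, Lama1 lies below the line, and Nostrin and Cubn lie above it.

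Set against the single wild-type library, the named genes took different positions. These 3 comparisons share libraries, so their values are given side by side only. Wild type has 1 library at day 0, which is assumed to vary like the other groups, so no spread of its own stands behind these values. Against wild type, 18 genes were called in the knockout (0.122%) and 256 in H3.3K27A (1.73%). Cubn had a log2 change of 1.8 in the knockout (adjusted p = 0.0141) and -1.17 in H3.3K27A (0.0203), and Pdgfra had 1.32 (0.0198) and -1.22 (0.018). Klhl13 had 0.15 in the knockout (adjusted p = 0.998) and -3 in H3.3K27A (6.78e-06). H3f3b had 0.16 (0.998) and -0.67 (0.00405), and Acsf2 had 0.38 (0.97) and 2.07 (0.00026). Sema6a had -1.03 (0.038) and -3.01 (3.45e-05), and Gbp2 had -1.54 (0.0154) and -2.81 (0.000174). For Lama1, Col4a1 and Col4a2 neither line passed against wild type (log2 changes 0.87 and -0.38, 0.9 and -0.36, 0.83 and -0.34).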

How the data were processed

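Libraries of poly(A) RNA were made with a strand-keeping kit, per the labels' protocols. Reads were aligned with STAR 2.5.2a to mm10 and counted with HTSeq, per the submitters' processing notes, and the authors deposited whole read counts per gene symbol. Whether counting used strand is not given in the sources used here, so overlapping and antisense genes may share reads. Rows that name no gene were left out (reads without a feature were 12.8% to 14.2% in the 4 libraries). Counts were tested in R 4.3.3 with edgeR 4.0.16 (filterByExpr, TMM, quasi-likelihood F-test, Benjamini-Hochberg adjustment over all 14760 genes), with 1 mean for each group over all 11 libraries of 2020; adjusted p-values below 0.05 were called. The test was checked on simulated data, with 50 changed genes at each size, all with a mean of at least 1 CPM. At a true log2 change of -1 and 1 it called 64% and 78% of them, and at -2 and 2 it called 96% and 100%. There were 11 false calls among 14645 genes. Each gene was given the same spread in all simulated libraries. The check thus does not cover lower genes or the wider spread of the day 6 knockout libraries. CPM values are counts relative to the TMM-scaled library size. Lists were described by counts and medians and given no test. The members and lists were chosen with earlier results of these data known. Genes were named by a rule: the 12 largest rises and falls among called genes of at least 5 CPM with separated groups (unnamed loci, microRNAs and pseudogenes left out by their symbols), the 8 most abundant with a 2-fold change, up to 4 called members of each list, and a set of fixed genes; others are said to be picked after their values were seen or stand as members of a list, and a few are not reported here. Symbols were placed on RefSeq GRCm38.p6 (99.4% matched). Peaks were called with MACS2 2.2.6, per the file headers, without a control library, and each peak carries a fold enrichment over background that the authors deposited; the filtered peaks' criterion is not given in the sources used here. Alternatives were DESeq2 1.42.0, other scaling, filters and sets of libraries, a replicate block and leaving out each library.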

Additional observations from a re-analysis of the deposited data

Results flagged for a closer look

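For 26 of the genes that were named by rule and are reported here, the change of H3.3K27A against the knockout differed between day 0 and day 6 by the interaction term of edgeR's quasi-likelihood test (adjusted p from 5.22e-05 to 0.0467). All of them but Klf4 were called at day 0, and the day 0 change is part of that term. Their number thus does not show how often the days differ. The values below are log2 changes at day 6 minus those at day 0. Among genes lower at day 0, the difference was 1.56 for Cubn, 1.31 for Pdgfra, 1.69 for Dab2 and 1.81 for Sox17, so that these primitive endoderm genes fell by less at day 6, while for Lama1 it was -1.75. It was 3.06 for Klhl13, 2.16 for Klb, 2.17 for Lefty1, 2.33 for Dkk1, 1.45 for Sema6a, 2.12 for Sema3e, 1.36 for Peg3, 1 for Gbp2 and -1.04 for Sfmbt2. Among genes higher at day 0, it was -1.65 for Acsf2, -1.29 for Kbtbd11, -1.08 for Ptk2b, -1.06 for Coro2b, -1 for Rhobtb1, -0.98 for Abca1, -2.8 for Robo4, -1.34 for Stra8, -1.5 for Hoxa3 and -0.89 for Epha4, and 0.74 for Cdh3. Klf4, not called at day 0, differed by -1.87.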

How the results depend on the processing

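Duplicates of 1 line each limit every result, and low genes such as Nostrin and the HOX genes rest on few counts. The 187 calls of day 0 became 341 with DESeq2, 336 with no filter beyond 1 count, 1019 with only the groups compared, 1039 with only the 5 day 0 libraries, 1177 without the knockout libraries of day 6 (the last pair chosen after seeing the data) and 19 to 25 with 1 library left out. The 71 of 2-fold or more became 116, 125, 188, 188, 193 and 17 to 20 in the same order. The B1 minus B2 differences of the lines at day 0 were not positively correlated (r = -0.28). Over all pairs of groups r ranged from -0.6 to 0.31, so whether the replicate numbers pair the samples is not settled. With the number as a replicate block 85 genes were called, 46 of 2-fold or more, and 451 for the difference between days. The 2756 calls of day 6 became 208 with only the groups compared and 719 to 5794 with 1 library left out. The 796 genes that differed between days became 430 and 170 to 3897. Of genes with H3.3K27me3 promoters 2.47% were called (median -0.04): this became 3.99% (-0.01) with DESeq2, 0% (-0.18) with peaks of at least 5-fold enrichment, where 16 genes were left, and 0.202% to 0.354% (-0.06 to -0.03) with 1 library left out, and the median was -0.05 with peaks over the start site. In the main fit 1.26% of all genes with a start site were called. The number of all genes called, given above, also rose with DESeq2 and fell with 1 library left out. The H3.3K27me3 shares of those fits thus do not show by themselves whether the difference from all genes changed. The retinoic acid response list's median, 0.17, ranged from -0.29 (without H3.3K27A replicate 2) to 0.23 with 1 library left out. The cause was not tested. Of the 47 called named genes, none changed direction in any of these fits, the replicate block lost 16 (Lama1, Col4a1, Col4a2, Foxq1, Hoxa10, Pou4f2, Prrx2, Abca1, Tgm3, Robo4, Dram1, Trh, Tbx3, Cdh3, Peg3 and Gbp2), DESeq2 lost Robo4 and another scaling lost Tbx3.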
